A study of Rattus norvegicus with 82 samples.

Results

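Gene expression was compared between 12 arrays of rat hypothalamus and 12 arrays of rat septum, which are all the arrays of those regions among the 82 of the series. Arrays were taken by the region code in their titles, and the region in their description field gave the same assignment. The series covered 7 brain regions, 3 treatments and 2 times of day, with 31099 probe sets on each array, and measured total RNA. Each of the 2 regions had 4 Sham, 4 ADX and 4 pADX arrays, with 2 of each treatment labelled AM and 2 labelled PM. ADX commonly abbreviates adrenalectomy, in which the adrenal glands are taken out, and Sham is the operated control. The sources used here explain neither the p in pADX nor the strain, sex and age of the rats, and name no other allele or agent. The labels do not say whether the arrays came from separate animals or from pools, or whether 1 animal gave both regions, so p-values measure the spread between arrays only. In tissue samples of this kind a smaller share of cells of a type and less RNA per cell cannot be told apart.

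The hypothalamus is the part of the forebrain floor that governs hormone release, feeding, water balance, sleep and body temperature. Much of this runs through neuropeptides, short chains cut from larger precursors, stored in dense core granules and released onto the pituitary or onto other neurons. The septum lies near the midline below the corpus callosum and is built largely of inhibitory neurons that exchange fibres with the hippocampus and the hypothalamus, with cholinergic neurons in its medial part and in the diagonal band. It arises from the telencephalon, as the cortex and striatum do, whereas most of the hypothalamus does not.

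Values are log2 signals after quantile normalization over the 82 arrays, with low values set to 4, called the floor below. Where arrays of the lower region stood at the floor, a fold is a lower bound and is written "at least". A gene with several probe sets is given by the brightest one. Differences are the mean of the hypothalamus minus the mean of the septum with treatment and time of day in the model, and a probe set passed where its p, adjusted by Benjamini-Hochberg, was below 0.05 over the 31042 probe sets tested with limma. In the deposited values the mean after trimming 2% at each end was 150.04 in the septum arrays and between 73.6 and 118 in the hypothalamus arrays. Region and scaling state therefore cannot be told apart, and the normalization alone adjusted for the offset. The ratio of 3' to 5' beta-actin probe sets ran from 2.64 to 3.11 in the hypothalamus and from 2.60 to 3.79 in the septum. An array's correlation with its own region lay between 0.987 and 0.993, and that with the other region between 0.964 and 0.973.

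The source names of these arrays disagree with their titles, since they name the hippocampi for the hypothalamus and the frontal cortex for the septum. Levels of the markers below differed from those in the regions so named. All 12 arrays of each region were closest to the mean of their own region among the 7. The region means were themselves grouped by title, so this shows likeness within a group and not which region it is. Slc17a7, the vesicular glutamate transporter of cortical and hippocampal neurons, had a mean of 4.05 in the hypothalamus arrays and 9.67 in the hippocampus arrays. Neurod6, a transcription factor of pyramidal neurons, had means of 5.38 and 10.63 in the same pair of regions. In the septum arrays Slc17a7 had a mean of 8.42, below the 9.84 of the frontal cortex, and the cortical transcription factor Tbr1 had 4.85 against 6.52. A lower signal than in the frontal cortex does not by itself show that the tissue is septum.

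The 2 regions differed widely. Of the 31042 probe sets, 5442 (17.5%) were higher in the hypothalamus and 4592 (14.8%) higher in the septum. With a minimum of 2-fold added, 1057 passed (3.41%), of which 414 (1.33%) were higher in the hypothalamus and 643 (2.07%) in the septum. Counted by gene, 5788 of 14217 passed (40.7%), and 3600 (25.3%) were higher in the hypothalamus and 2188 (15.4%) in the septum, of which 272 (1.91%) and 312 (2.19%) differed at least 2-fold, 584 in all (4.11%). The 12 arrays of one region did not overlap the 12 of the other for 1321 genes (9.29%). At 4-fold or more, 67 probe sets were higher in the hypothalamus and 96 in the septum, at 8-fold or more 24 and 18, and at 16-fold or more 11 and 5. Of the 414 probe sets, 259 (62.6%) were at least 2-fold higher within Sham, within ADX and within pADX, as were 453 of the 643 (70.5%).

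Neuropeptides made up 6 of the 15 genes that were named for the largest excess in the hypothalamus. Pmch, the precursor of the melanin-concentrating hormone of the lateral hypothalamus, was highest in excess. It ran from 11.85 over a median of 12.20 to 12.48 in the hypothalamus and from 4.31 over 4.99 to 5.32 in the septum. The ranges lay far apart, and the difference was 7.28 (SE 0.11), or 156-fold, with an adjusted p of 8.48e-21. Avp encodes vasopressin, the hormone of water retention. Its signal was 10.61 at the lowest, 11.20 at the median and 11.74 at the highest in the hypothalamus, while 8 septum arrays stood at the floor and the highest reached 4.63. The difference of 7.01 (SE 0.12) was at least 129-fold. Oxt, encoding oxytocin, was at the floor in all 12 septum arrays and ran from 9.87 over 10.95 to 11.63 in the hypothalamus, at least 124-fold higher (6.95, SE 0.14).

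The other 3 named peptides were separated by about 4 log2 units. Hcrt, the orexin precursor of wake-promoting lateral hypothalamic neurons, ran from 8.96 over 9.32 to 10.25 in the hypothalamus and from 4.0 over 5.01 to 5.68 in the septum. It was at least 23.5-fold higher (4.55, SE 0.19). Trh, the thyrotropin-releasing hormone precursor, ran from 7.82 over 8.35 to 8.60 against 4.0 over 4.21 to 4.56, a difference of 4.07 (SE 0.08). Gal, encoding galanin, ran from 8.65 over 8.80 to 9.03 against 4.0 over 4.95 to 5.30, a difference of 4.0 (SE 0.12). For all 6 peptides every hypothalamus array lay above every septum array, which the rule for named genes required. The gap held within each treatment. Avp differed by 7.42 within Sham, 6.52 within ADX and 7.10 within pADX, and Pmch by 7.10, 7.63 and 7.11.

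The stretch of 250 bases before the start of transcription is shown for 4 of these peptide genes because they are among the genes with the widest gap, and because Avp and Oxt are neighbours on chromosome 3 with 0 protein-coding genes between them. Pmch is named without a sequence. The sequences are from RefSeq's assembly GRCr8 and are written 5' to 3' on the strand of the gene. Capitals mark AGGTCA, the core site of nuclear receptors, searched on both strands (TGACCT is its reverse complement), and TATAAA, the core of a TATA box, searched on the sense strand. Avp lies on the minus strand at chr3:138248523-138248772, Oxt on the plus strand at chr3:138235504-138235753, Hcrt on the minus strand at chr10:86191525-86191774 and Trh on the minus strand at chr4:126301763-126302012.
Avp: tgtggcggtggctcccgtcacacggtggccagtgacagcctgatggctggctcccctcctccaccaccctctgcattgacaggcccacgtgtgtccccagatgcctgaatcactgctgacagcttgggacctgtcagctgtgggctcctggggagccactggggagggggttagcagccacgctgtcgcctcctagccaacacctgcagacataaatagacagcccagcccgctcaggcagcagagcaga
Oxt: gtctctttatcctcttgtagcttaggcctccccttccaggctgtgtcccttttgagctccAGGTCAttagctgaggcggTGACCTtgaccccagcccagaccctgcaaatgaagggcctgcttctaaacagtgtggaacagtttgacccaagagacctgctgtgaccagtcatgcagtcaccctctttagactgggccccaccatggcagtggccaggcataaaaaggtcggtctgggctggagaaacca
Hcrt: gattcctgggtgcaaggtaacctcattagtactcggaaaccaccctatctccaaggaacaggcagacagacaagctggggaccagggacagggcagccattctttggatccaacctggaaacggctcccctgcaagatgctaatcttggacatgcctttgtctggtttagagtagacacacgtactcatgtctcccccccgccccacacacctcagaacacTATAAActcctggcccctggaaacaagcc
Trh: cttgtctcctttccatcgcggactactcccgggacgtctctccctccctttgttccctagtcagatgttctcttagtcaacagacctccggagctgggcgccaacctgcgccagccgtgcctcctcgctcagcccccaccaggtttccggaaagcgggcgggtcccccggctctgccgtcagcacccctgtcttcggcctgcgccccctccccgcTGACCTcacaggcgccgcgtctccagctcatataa

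AGGTCA was found in 13.7% of 27457 promoters of the same length and TATAAA in 8.38%. Oxt held AGGTCA 190 to 185 bases before the start and again, as the reverse complement, 171 to 166 bases before it. Trh held the reverse complement 35 to 30 bases before the start. Hcrt held TATAAA 29 to 24 bases before the start. The cyclic AMP response element TGACGTCA, found on either strand in 1.7% of promoters, was in none of the 4 windows, and none of these 3 motifs was in that of Avp. A match here is a run of letters only.

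Over the whole list of neuropeptides and releasing hormones, 31 of 37 members were measured. Of these, 12 were higher in the hypothalamus, 6 were higher in the septum and 13 did not pass. That is a share of 58.1% passing, against 40.7% of all genes. At 2-fold the counts were 9 and 4, and the list's median difference was 0.10, close to the 0.02 of all genes. A small set of members thus carried a very large excess. Beyond the 6 above, Npvf, the precursor of gonadotropin-inhibitory peptides, ran from 7.0 over 7.44 to 7.95 in the hypothalamus and from 4.0 over 4.29 to 5.62 in the septum (3.05, SE 0.17). Adcyap1, encoding the peptide PACAP, ran from 8.45 over 8.70 to 8.76 against 4.0 over 5.87 to 6.59 (2.94, SE 0.20). Neither overlapped between regions. Ghrh, the growth hormone-releasing hormone of the arcuate nucleus, was higher by 2.10 (SE 0.21) and Cartpt, the precursor of an appetite-reducing peptide, by 0.75 (SE 0.09).

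**Figure D1:**
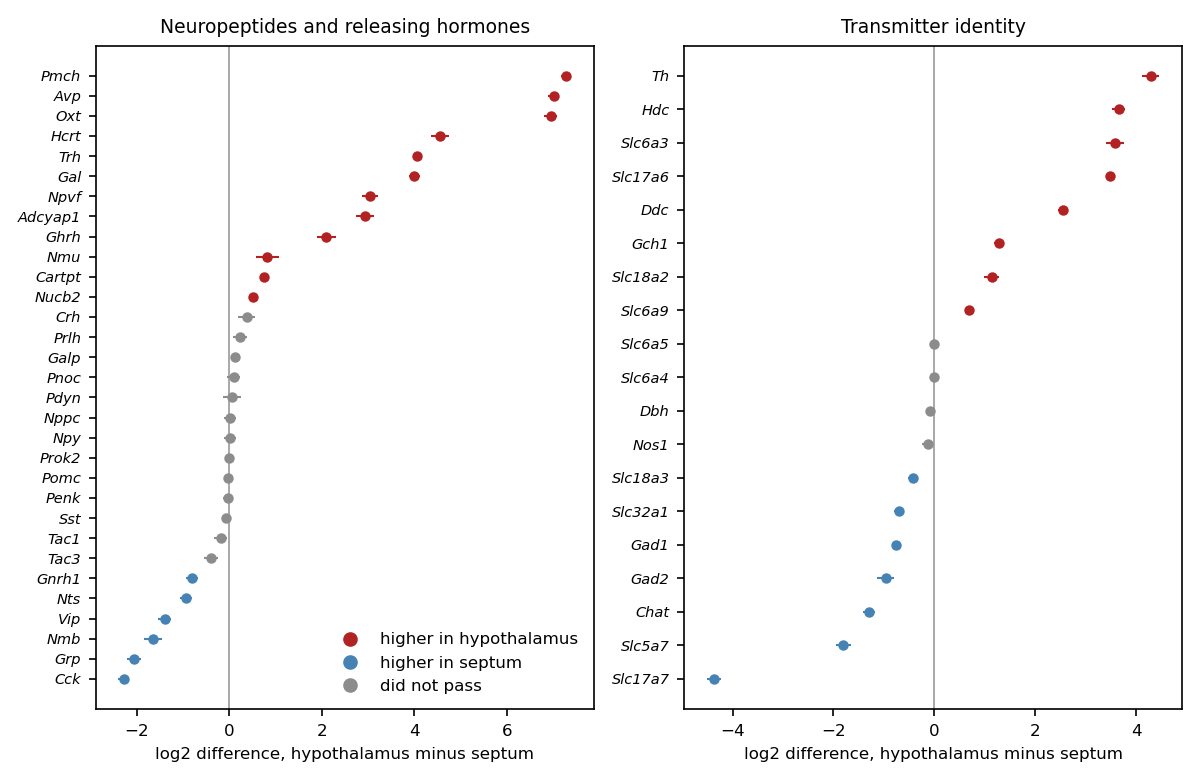
Difference in log2 signal, hypothalamus minus septum, with its standard error, for the 31 measured neuropeptides and releasing hormones (left) and the 19 measured genes of transmitter identity (right), from 12 arrays a region. Pmch, Avp and Oxt stand near 7, a block of peptides from Crh to Tac3 did not pass, and Slc17a6 and Slc17a7 sit near opposite ends of the transmitter panel.

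Peptides with a higher signal in the septum included several that are known from both gut and brain. Cck, encoding cholecystokinin, ran from 7.82 over 8.06 to 8.60 in the hypothalamus and from 9.94 over 10.34 to 11.06 in the septum (-2.28, SE 0.11). Grp, the gastrin-releasing peptide, differed by -2.05 (SE 0.15), Nmb, the related neuromedin B, by -1.65 (SE 0.19) and Vip, the vasoactive intestinal peptide, by -1.40 (SE 0.13). These 4 did not overlap between regions. Nts, encoding neurotensin, differed by -0.94 (SE 0.13). Gnrh1, the releasing hormone of the reproductive axis, whose neurons in rodents are scattered from the septum to the preoptic area, differed by -0.80 (SE 0.12), with 5.11 to 6.13 in the septum and 4.20 to 5.57 in the hypothalamus.

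Several peptides known as hypothalamic did not pass. Npy, the hunger-promoting neuropeptide Y, had medians of 9.06 and 8.91 in hypothalamus and septum (0.02, SE 0.12, limma adjusted p of 1). Sst, somatostatin, had 9.38 and 9.48 (-0.07, SE 0.08) and Penk, the enkephalin precursor, 9.73 and 9.81 (-0.02, SE 0.10). Their ranges overlapped throughout. Crh, the releasing hormone of the stress axis, ran from 4.89 to 6.95 against 4.75 to 5.63 and did not pass (0.38, SE 0.19, limma adjusted p of 0.159). Its difference was 0.11 within Sham, 1.21 within ADX and -0.19 within pADX, and the test that the gap changed with treatment did not pass for it. Pdyn, the dynorphin precursor, ran from 8.33 to 9.02 in the hypothalamus and more widely, from 7.02 to 9.69, in the septum (0.07, SE 0.19). Pomc, the precursor of melanocortins, was at the floor in 12 hypothalamus and 11 septum arrays, so no level could be read from its probe set.

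The machinery that makes and packs peptides leaned toward the hypothalamus. Of 16 measured genes of peptide processing and dense core granules, 9 were higher there, 2 were higher in the septum and 5 did not pass, with a median of 0.25. The share that passed was 68.8%, against 40.7% of all genes. Scg2, a secretogranin that is stored in the granules, ran from 11.66 over 11.74 to 11.84 against 10.43 over 10.63 to 10.81 (1.13, SE 0.03). Resp18, a protein of endocrine granules, was higher by 1.06 (SE 0.05), and Pam, the enzyme that amidates peptides, by 0.77 (SE 0.02). None of these 3 overlapped. Cpe, the carboxypeptidase that trims peptide ends, differed the other way by -0.14.

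Receptors for peptides and hormones were split. Of 39 measured, 16 were higher in the hypothalamus, 8 higher in the septum and 15 did not pass, with 5 at 2-fold or more on each side and a median of 0.18. In this list 61.5% passed, against 40.7% of all genes. Calcr, the calcitonin receptor, ran from 8.09 over 8.37 to 8.56 in the hypothalamus and from 4.06 over 5.46 to 5.85 in the septum (3.0, SE 0.16). Galr2, a galanin receptor, ran from 6.31 over 6.68 to 6.86, with 9 septum arrays at the floor, and was at least 5.81-fold higher (2.54, SE 0.09). Hcrtr2, the second orexin receptor, was higher by 1.56 (SE 0.10), and both it and the first, Hcrtr1 (1.06, SE 0.15), passed. Prlr, the prolactin receptor, was higher by 1.46 (SE 0.19) and the leptin receptor Lepr by 0.77 (SE 0.15), the latter from levels near the floor.

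Nuclear receptors in the list went both ways. Nr3c2, the mineralocorticoid receptor, which binds corticosterone in limbic tissue, ran from 6.56 over 6.75 to 6.95 in the hypothalamus and from 8.01 over 8.29 to 8.69 in the septum (-1.57, SE 0.06). The thyroid hormone receptors Thrb and Thra differed by -1.53 (SE 0.06) and -0.41 (SE 0.07). Pgr, the progesterone receptor, was higher in the hypothalamus by 0.42 (SE 0.13), but differed by -0.21 in the values as deposited, without normalization. The glucocorticoid receptor Nr3c1 had medians of 8.68 and 8.72 and overlapping ranges (-0.05, SE 0.07, limma adjusted p of 0.673). Mc4r, the melanocortin receptor of feeding circuits, differed by -1.18 (SE 0.15) and Mchr1, the receptor for the Pmch product, by -1.03 (SE 0.16), both with some hypothalamus arrays at the floor. Esr1, Esr2, Oxtr and Oprd1, which encode estrogen, oxytocin and opioid receptors, were at the floor in all 24 arrays. No level could be read from their probe sets, and these 4 are among the 15 receptors that did not pass.

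**Figure D2:**
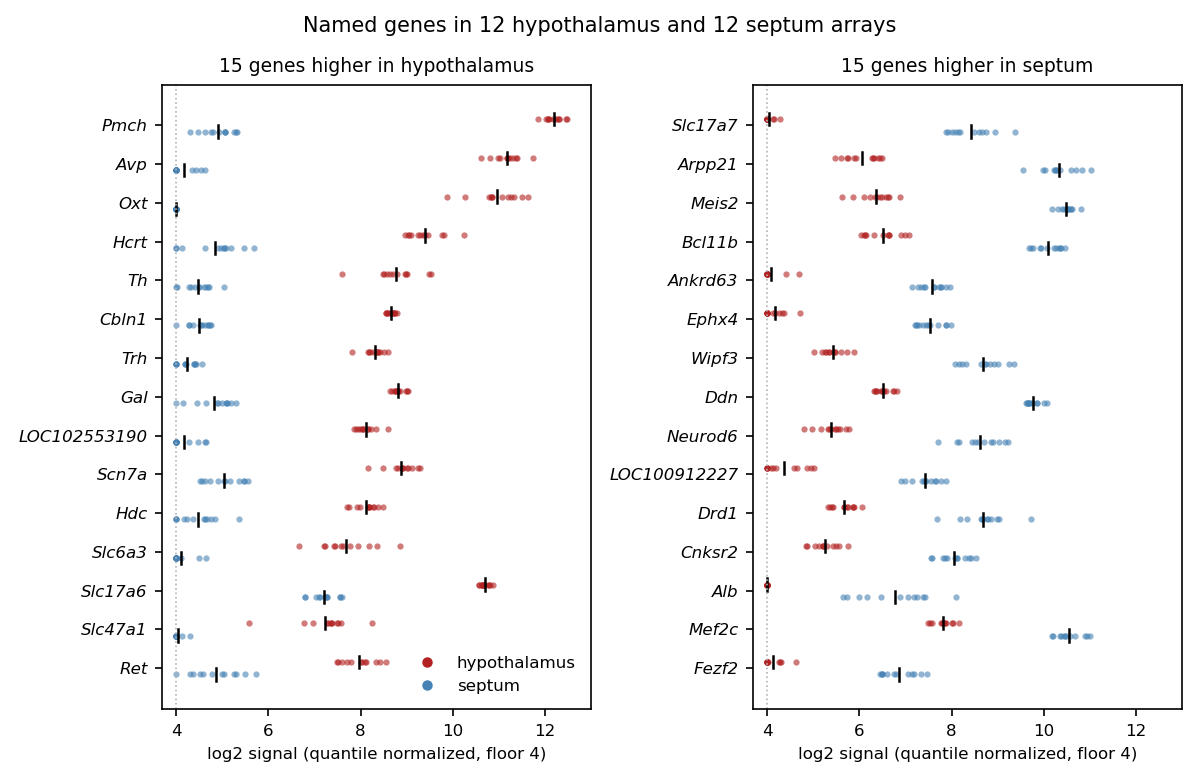
Log2 signal of the 15 genes named for the largest excess in the hypothalamus (left) and of the 15 for the septum (right), 1 dot per array and a black bar at the mean of 12 arrays, with the floor of 4 dotted. For each of the 30 genes the dots of the regions do not overlap, as the choice of genes required. Oxt in the septum and Alb in the hypothalamus lie wholly at the floor.

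Transmitter genes were split between the regions. Of 19 measured genes of transmitter identity, 8 were higher in the hypothalamus, 7 higher in the septum and 4 did not pass. The share that passed was 78.9%, against 40.7% of all genes. Slc17a6 and Slc17a7 are the vesicular glutamate transporters of mainly subcortical and mainly cortical neurons, respectively. Slc17a6 ran from 10.57 over 10.67 to 10.88 in the hypothalamus and from 6.79 over 7.25 to 7.59 in the septum (3.48, SE 0.08). Slc17a7 ran from 4.0 over 4.0 to 4.29 against 7.88 over 8.34 to 9.39, with 9 hypothalamus arrays at the floor, and was at least 20.7-fold higher in the septum (-4.37, SE 0.14). For neither gene did an array of one region reach the range of the other, which their choice as named genes required.

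Genes of the monoamine neurons were higher in the hypothalamus. Th, tyrosine hydroxylase, the first enzyme of catecholamine synthesis, ran from 7.60 over 8.75 to 9.52 against 4.0 over 4.49 to 5.04 (4.30, SE 0.17). Slc6a3, the dopamine transporter, ran from 6.67 over 7.60 to 8.86, with 9 septum arrays at the floor (3.59, SE 0.18). Hdc, the enzyme that makes histamine and a marker of the tuberomammillary nucleus, ran from 7.70 over 8.18 to 8.48 against 4.0 over 4.48 to 5.37 (3.66, SE 0.13). Ddc, which makes dopamine and serotonin from their precursors, was higher by 2.56 (SE 0.10), Gch1, which makes the cofactor of tyrosine hydroxylase, by 1.28 (SE 0.10) and Slc18a2, the vesicular monoamine transporter, by 1.14 (SE 0.15). Dbh, the noradrenaline enzyme, and Slc6a4, the serotonin transporter, did not pass. Th and Slc6a3 were both lowest in the same hypothalamus array, pADX AM replicate 1, at 7.60 and 6.67, still above every septum array.

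Genes of GABA neurons were moderately higher in the septum. Gad1 and Gad2 encode the enzymes that make GABA, and Slc32a1 its vesicular transporter. Gad1 ran from 10.66 over 10.85 to 10.92 in the hypothalamus and from 11.39 over 11.56 to 11.81 in the septum (-0.76, SE 0.05). Gad2 differed by -0.97 (SE 0.16) and Slc32a1 by -0.71 (SE 0.09). Some genes of cholinergic neurons were also higher in the septum. Slc5a7, the choline transporter, ran from 5.29 over 6.06 to 6.48 against 7.05 over 7.83 to 8.36 (-1.80, SE 0.15). Chat, the enzyme that makes acetylcholine, was at the floor in 10 hypothalamus arrays and ran from 4.71 over 5.34 to 6.03 in the septum (-1.29, SE 0.12). The vesicular transporter Slc18a3 differed less (-0.42, SE 0.10), with a septum mean of 4.46, near the floor. Ngfr, also listed for the septum and diagonal band, did not pass (-0.36, SE 0.14).

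Most listed hypothalamic transcription factors were higher in the hypothalamus, and most listed telencephalic ones higher in the septum. Embryonic origin itself was not tested. Of 16 measured hypothalamic factors, 11 were higher in the hypothalamus, 0 higher in the septum and 5 did not pass, with 5 at 2-fold or more and a median of 0.60. Among them 68.8% passed, against 40.7% of all genes. Nkx2-1, which specifies the ventral hypothalamus, ran from 6.23 over 6.79 to 7.05 against 4.14 over 4.99 to 5.78 (1.75, SE 0.15). Irx3 ran from 5.66 over 6.12 to 6.51, Six6 from 4.90 over 5.58 to 6.04 and Sim1, needed for the oxytocin and vasopressin neurons, from 4.49 over 5.09 to 5.98. All 12 septum arrays were at the floor for these 3, and the differences were 2.14, 1.57 and 1.14 (SE 0.08, 0.10 and 0.13). Rax, a factor of tanycytes, and Nr5a1, of the ventromedial nucleus, were higher by 0.74 and 0.82 from levels near the floor.

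Of 21 measured telencephalic factors, 17 were higher in the septum, 1 was higher in the hypothalamus and 3 did not pass, with 14 at 2-fold or more in the septum and a median of -1.36. Among these factors 85.7% passed, against 40.7% of all genes. Meis2 ran from 5.63 over 6.42 to 6.88 in the hypothalamus and from 10.17 over 10.51 to 10.81 in the septum (-4.14, SE 0.11). Bcl11b, a factor of striatal and deep-layer cortical neurons, ran from 6.03 over 6.57 to 7.07 against 9.67 over 10.14 to 10.46 (-3.59, SE 0.12). Both differed more than 10-fold and are among the named genes, for which no overlap was required. Zic1 and Zic4, which are known in septal development, differed by -1.35 (SE 0.10) and -1.94 (SE 0.14), Foxp1 by -1.56 (SE 0.14) and Lhx2 by -2.01 (SE 0.09). Dlx1 and Dlx5, factors of forebrain GABA neurons, differed by -0.69 and -1.17. Ebf1 was the exception, higher in the hypothalamus by 0.80 (SE 0.09).

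**Figure D3:**
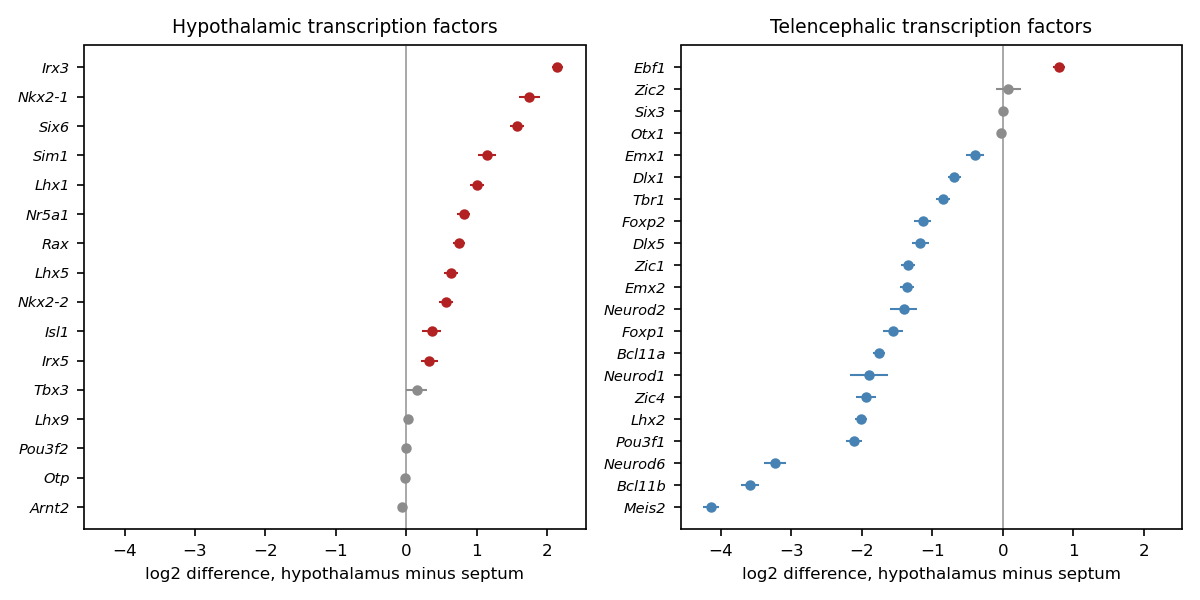
Difference in log2 signal, hypothalamus minus septum, with its standard error, for 16 hypothalamic (left) and 21 telencephalic (right) transcription factors on a shared axis, with red for higher in the hypothalamus, blue for higher in the septum and grey for genes that did not pass. The left list runs from Arnt2 near 0 to Irx3 at 2.14, and the right from Meis2 at -4.14 to Ebf1 at 0.80.

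Genes named for the largest excess in the septum included synaptic and signalling proteins of forebrain neurons. Arpp21, a phosphoprotein of striatal neurons, ran from 5.47 over 6.11 to 6.48 in the hypothalamus and from 9.56 over 10.28 to 11.02 in the septum (-4.29, SE 0.12). Ddn, a dendritic protein, ran from 6.31 over 6.50 to 6.81 against 9.61 over 9.71 to 10.08 (-3.25, SE 0.07). Cnksr2, a synaptic scaffold, differed by -2.80 (SE 0.12) and Mef2c, a transcription factor of excitatory neurons, by -2.73 (SE 0.10). Ankrd63, Ephx4, Wipf3 and LOC100912227 differed by -3.49, -3.36, -3.27 and -3.06, and the cortical factors Neurod6 and Fezf2 by -3.23 and -2.73. Alb, encoding serum albumin, was at the floor in all 12 hypothalamus arrays and ran from 5.64 over 6.97 to 8.09 in the septum (-2.78, SE 0.18). That none of the 15 overlapped between regions was a condition of their choice. Where a named gene of either region had another probe set, it differed in the same direction, often less, as for Slc6a3 (1.06 by its second probe set) and Wipf3 (-0.40), apart from LOC102553190.

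The remaining genes named for the hypothalamus were of several kinds. Cbln1, a secreted organizer of synapses, ran from 8.55 over 8.67 to 8.79 against 4.0 over 4.54 to 4.76 (4.16, SE 0.07). Scn7a, a sodium-sensing channel of the organs around the third ventricle, ran from 8.17 over 8.91 to 9.29 against 4.51 over 5.05 to 5.56 (3.85, SE 0.12). Ret, the receptor of the GDNF family of growth factors, was higher by at least 3.11 (SE 0.16) and LOC102553190 by at least 3.94 (SE 0.09). The other probe sets of LOC102553190 stood at the floor in both regions. Slc47a1, an exporter of organic cations, ran from 5.58 over 7.36 to 8.25, with 10 septum arrays at the floor (3.20, SE 0.18). Meningeal and fibroblast markers moved with the hypothalamus too, as given below, and their part in the Slc47a1 difference was not tested.

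The named genes were also compared across all 7 regions. They were chosen for a large gap between hypothalamus and septum, which favours a high mean in the higher region. Other genes were not counted this way. Of the 15 genes higher in the hypothalamus, 13 had their highest mean there, the exceptions being Ret, highest in the dorsal raphe at 8.41, and LOC102553190, highest in the locus coeruleus at 8.63. Some of the 13 had a close second. Th had means of 8.77 in the hypothalamus, 8.74 in the locus coeruleus and 8.54 in the dorsal raphe, with an SD of 0.50 in the hypothalamus, so the order of those 3 lay within the spread. Slc17a6 had 10.69, 10.59 in the dorsal raphe and 10.40 in the locus coeruleus. Pmch, Avp and Oxt had their second highest mean in the amygdala, at 6.85, 7.40 and 6.14.

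Of the 15 genes higher in the septum, 6 had their highest mean of the 7 regions there and 4 in the frontal cortex. Drd1, with 8.69, stood above the amygdala's 7.19, and LOC100912227, with 7.43, above 5.80. Arpp21 had 10.34 in the septum and 9.99 in the frontal cortex, a gap below the septum's SD of 0.40. Neurod6, Slc17a7 and Mef2c were all lower in the septum than in the frontal cortex. For 4 of the 15 the hypothalamus had the lowest mean of all regions.

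**Figure D4:**
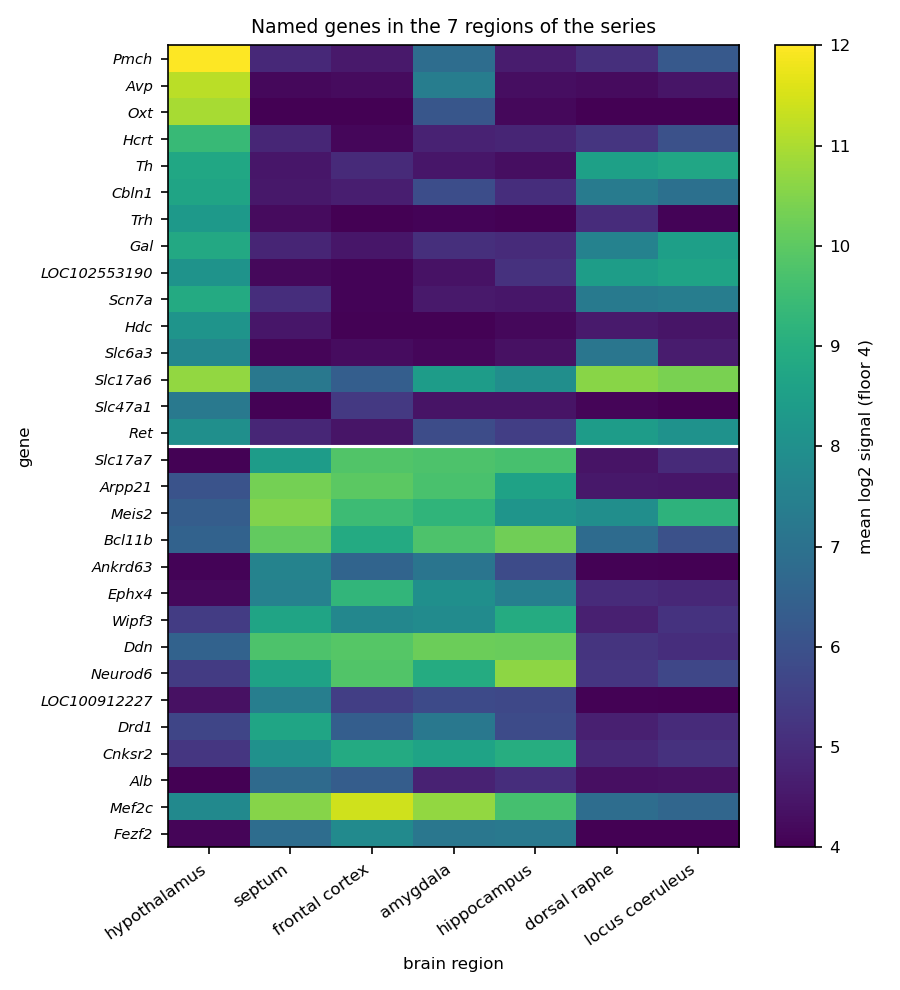
Mean log2 signal of the 30 named genes (rows, the upper 15 higher in the hypothalamus and the lower 15 higher in the septum) in the 7 regions of the series (columns). The upper rows are brightest in the hypothalamus column for 13 of 15 genes, and the lower rows are bright in several telencephalic columns, with 6 of 15 brightest in the septum.

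Genes of GABA-A and glutamate receptors, metabotropic ones included, were mostly higher in the septum at the larger sizes. Of 32 GABA-A and glutamate receptor genes, 12 were higher in the septum, 6 higher in the hypothalamus and 14 did not pass, with 9 against 1 at 2-fold or more. The share that passed was 56.25%, against 40.7% of all genes. Gabrd, the delta subunit of GABA-A receptors outside synapses, ran from 4.78 over 4.95 to 5.49 against 6.33 over 6.85 to 7.51 (-1.79, SE 0.12). The AMPA receptor subunits Gria1, Gria2 and Gria3 differed by -1.01, -1.04 and -1.49, and the NMDA receptor subunits Grin2a and Grin2b by -1.48 and -1.05. The shared NMDA subunit Grin1 differed by -0.04 and did not pass. Gabre, the epsilon subunit of GABA-A receptors known in hypothalamic and brainstem neurons, was higher in the hypothalamus by 1.11 (SE 0.21).

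Of 37 receptors for monoamines, acetylcholine and adenosine, 13 were higher in the septum, 3 were higher in the hypothalamus and 21 did not pass. The share that passed, 43.2%, is close to the 40.7% of all genes. Drd1, the dopamine receptor of the direct striatal pathway, ran from 5.31 over 5.71 to 6.05 against 7.68 over 8.72 to 9.72 (-3.03, SE 0.14). Adora2a, the adenosine receptor of the indirect pathway, ran from 4.0 over 4.16 to 4.61 against 5.28 over 6.92 to 8.14 (-2.72, SE 0.17). Both had their highest mean of the 7 regions in the septum arrays, and both spread widely within them. Drd2 differed by -0.90 (SE 0.15) and Htr2c, a serotonin receptor, by -0.73 (SE 0.05).

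Markers of neighbouring tissue moved with these genes. Of 18 measured striatal markers 88.9% passed, against 40.7% of all genes, and 15 were higher in the septum arrays, with a median of -1.34. Their summed linear signal ran from 2736 to 3039 in the hypothalamus and from 4195 to 11055 in the septum, with no overlap. Of 12 cortical projection neuron markers 100% passed and 11 were higher in the septum, and their sum ran from 1402 to 1795 against 3092 to 5808. Arpp21, Drd1 and Adora2a are in the striatal list and Slc17a7, Neurod6 and Fezf2 in the cortical one. The part of adjoining striatum or cortex in the septal signals was not tested, and neuron types shared by these tissues cannot be told apart in these arrays.

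Genes listed for the septum and diagonal band went mostly toward the septum. Of 10 measured, 6 were higher there, 2 were higher in the hypothalamus and 2 did not pass, with a median of -0.68. The share that passed was 80%, against 40.7% of all genes. Trpc4, a cation channel known in the lateral septum, ran from 4.93 over 5.43 to 5.94 against 6.56 over 7.57 to 8.03 (-2.0, SE 0.16). The calcium-binding proteins Calb1 and Pvalb went the other way, by 1.37 (SE 0.05) and 0.86 (SE 0.10).

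Glial and vascular markers differed from list to list. Of 14 astrocyte markers 10 were higher in the hypothalamus and 4 in the septum, with a median of 0.46. Agt, the angiotensin precursor, which astrocytes make in the brain, ran from 10.54 over 10.78 to 11.08 against 7.85 over 8.51 to 8.95 (2.35, SE 0.09). Slc6a11, a GABA transporter of astrocytes, was higher by at least 1.26 (SE 0.10), Gjb6, a gap junction protein, by 1.10 (SE 0.08) and Gfap, the astrocyte filament, by 0.79 (SE 0.09). The glutamate transporter Slc1a3 and the gap junction protein Gja1 differed the other way by -0.26 and -0.22. Of 13 oligodendrocyte markers 1 was higher in the hypothalamus and 4 in the septum, with a median of -0.04, and Mbp, a myelin protein, differed by -0.01. The shares that passed were 100% for astrocyte and 38.5% for oligodendrocyte markers, against 40.7% of all genes.

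Meningeal and fibroblast markers were all higher in the hypothalamus, 10 of 10, with 8 at 2-fold or more and a median of 1.35. Igf2, a growth factor made by meninges, ran from 8.76 over 9.63 to 10.13 against 7.48 over 7.79 to 8.67 (1.60, SE 0.15), and Dcn, the matrix protein decorin, differed by 1.55 (SE 0.14). The list's summed signal ran from 1237 to 3681 in the hypothalamus and from 715 to 1157 in the septum. Of 11 endothelial markers 7 were higher in the hypothalamus and none in the septum, with a median of 0.39. Of 4 blood markers 2 were higher in the hypothalamus, among them Hbb, a globin of red cells, by 1.35 (SE 0.18). Of 13 markers of microglia and macrophages 4 were higher there, led by Cd74, a chaperone of antigen presentation, by 1.48 (SE 0.18), and 9 did not pass. In the meningeal, endothelial, blood and microglial lists 100%, 63.6%, 50% and 30.8% passed, against 40.7% of all genes.

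The remaining lists were mixed. Of 9 thalamic markers 5 were higher in the hypothalamus and 3 in the septum, with Calb2, the calcium-binding calretinin, at 2.60 (SE 0.12) and Prkcd, a protein kinase C, at -2.09 (SE 0.12). Of the thalamic list 88.9% passed, against 40.7% of all genes. Its summed linear signal ran from 2686 to 3388 in the hypothalamus and from 867 to 1390 in the septum, with no overlap. The sum is weighted to its brightest members, Slc17a6 and Calb2, with hypothalamus means of 10.69 and 9.78. Ramp3 and Tnnt1 were higher in the septum, as Prkcd was, and Gbx2 lay near the floor in both regions. Slc17a6 is in this list, and the part of adjoining thalamus in its signal was not tested. Of 10 tanycyte markers 5 were higher in the hypothalamus and 2 in the septum. Of 6 hippocampal markers 1 and 3, of 6 ependymal markers 1 and 1, of 5 markers of oligodendrocyte precursors 0 and 1, and of 8 choroid plexus markers 0 and 1 were higher in hypothalamus and septum, respectively. Shares that passed were 70% of tanycyte, 66.7% of hippocampal, 33.3% of ependymal, 20% of precursor and 12.5% of choroid plexus markers. General neuronal markers were even, with 4 of 11 higher in each region, and of 10 common reference genes 5 were higher in the hypothalamus and 1 in the septum, none by 2-fold. The neuronal list passed at 72.7% and the reference list at 60%.

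**Figure D5:**
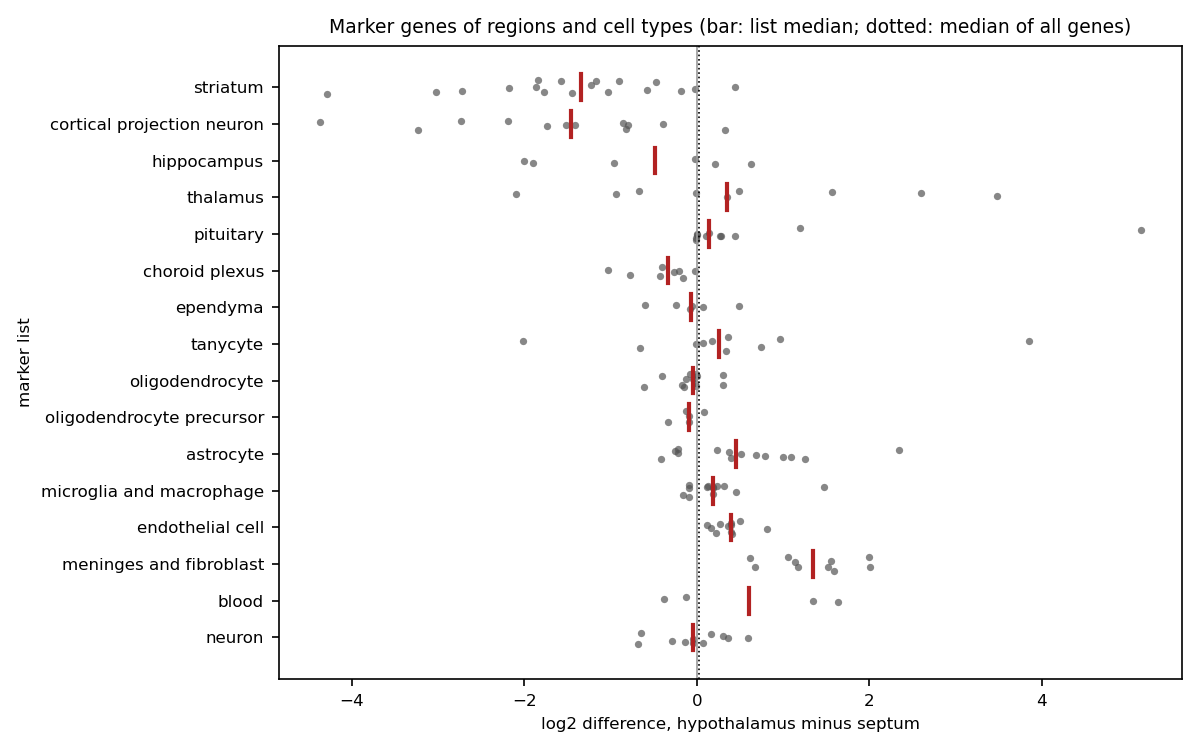
Difference in log2 signal, hypothalamus minus septum, for each measured gene of 16 marker lists of regions and cell types, with a red bar at the median of each list and a dotted line at the 0.02 median of all genes. Striatal and cortical markers lie mainly below 0 and meningeal markers wholly above it, while the single pituitary marker far to the right is Cga.

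A few arrays stood apart for genes of adjoining tissue. Cga, the common subunit of pituitary glycoprotein hormones and a gene of the pars tuberalis, ran from 8.71 to 10.84 in 11 hypothalamus arrays and was at the floor in ADX AM replicate 1. Ghrh was lowest in that same array, at 4.47, against 5.95 to 6.84 in the others. Of 11 pituitary markers 3 were higher in the hypothalamus and 8 did not pass. The 27.3% that passed lay below the 40.7% of all genes. The pituitary markers Prl, Pou1f1 and Gnrhr were at the floor in all 12 hypothalamus arrays. In the septum, Ttr, the transthyretin of the choroid plexus, reached 12.60 in pADX AM replicate 1, with a median of 7.10 and a lowest value of 4.47. It did not pass between regions (-0.77, SE 0.74). Ttr was also high in septum Sham AM replicate 2 (10.80) and ADX AM replicate 2 (9.21), and in hypothalamus pADX AM replicate 1 (9.32). A fit left out only hypothalamus ADX AM replicate 1 and septum pADX AM replicate 1, called the 2 arrays that stand apart. Without them 9943 probe sets passed in place of 10034, and 1036 of the 1057 that differed at least 2-fold did so again.

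Hormone and clock genes bear on the treatments and times of the series. Of 19 measured glucocorticoid-induced genes, 7 were higher in the hypothalamus, 5 higher in the septum and 7 did not pass, with a median of 0.06. Sult1a1, a phenol sulfotransferase, was higher in the hypothalamus by 1.09 (SE 0.16), while Klf9, a transcription factor, was higher in the septum (-0.70, SE 0.10). Of 20 clock genes, 3 were higher in the hypothalamus and 7 in the septum, with Npas2, a partner of the clock's core factors, at -1.26 (SE 0.07) and Per1, which is in both lists, at -1.28 (SE 0.22). Of 10 measured genes of thyroid hormone and steroid handling, 3 were higher in the hypothalamus and 2 in the septum. In the glucocorticoid, clock and thyroid lists 63.2%, 50% and 50% passed, against 40.7% of all genes. Crym, which binds thyroid hormone, ran from 6.36 over 8.17 to 8.42 against 9.74 over 10.10 to 10.57 (-2.17, SE 0.19), and Hsd11b1, which regenerates active glucocorticoid, differed by -0.77 (SE 0.10).

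Tests of whether the gap between regions changed with treatment or time gave few calls. Of 31042 probe sets, 3 (0.00966%) passed the limma F test that the difference between regions changed with treatment. An unadjusted p under 0.05 was found for 2767 (8.91%). For time of day 0 passed, 1434 (4.62%) had an unadjusted p under 0.05, and the smallest adjusted p was 0.539. Mepe, a phosphoglycoprotein known from bone and teeth, was at the floor in all 12 hypothalamus arrays. In the septum it ran from 5.30 to 5.74 in the 4 Sham arrays and from 5.22 to 5.60 in the 4 pADX arrays, and from 4.0 to 4.24 in the 4 ADX arrays, with no overlap. The limma adjusted p of this interaction was 1.96e-05. The other genes that passed, Lrrn4 and Cdca2, lay close to the floor. In the 4 septum ADX arrays they ran from 4.22 to 4.40 and from 4.28 to 4.55, and elsewhere in these regions they were no higher than 4.13. With a floor of 32 in place of 16, 1 probe set passed this interaction test, and with a filter on low values 0 did.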

How the data were processed

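Each array and probe set has 1 linear intensity in the deposited table; its software and scaling are not named in the sources used. No per-sample column lacked a label (0). The intensities were quantile normalized across all 82 arrays, values under 16 were raised to 16, and log2 was taken, which puts the floor at 4, where 27.5% of the values of the 24 arrays lay. Without the 57 control probe sets, 31042 were tested with limma (version 3.58.1, R 4.3.3) by lmFit and eBayes with an intensity trend. Region was tested with treatment and time of day as covariates, and the interactions with moderated F tests. The fit left 19 residual degrees of freedom. The number of arrays limits the precision. The platform's annotation gave 1 symbol for 20826 probe sets, several for 436 and none for 9780. Gene identifiers tied 20758 to RefSeq (GRCr8), which gave 14217 genes.

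Named genes are the 15 in each direction with the largest difference among genes that passed, had a mean of at least 6 in the higher region, and had no overlap between the arrays of the regions; for interactions, up to 5 genes of lowest p among those that passed; and members of the lists. The comparison, the 13 gene lists and the 16 marker lists were chosen with earlier results of these data known. Replicate numbers come from the titles. The fit was tested on simulated data. Alternatives were other normalizations, floors, filters and blocks, single treatments or times, and leaving out each array.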

Additional observations from a re-analysis of the deposited data

Results flagged for a closer look

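The gap between hypothalamus and septum differed between treatments for 3 genes, by the interaction F test in limma. For Mepe, the hypothalamus minus septum difference was 1.37 log2 units higher in ADX than in Sham, since the septum signal was near 5.53 (SD 0.18, n = 4) in Sham and 4.16 (SD 0.11, n = 4) in ADX while the hypothalamus stayed at the floor (limma adjusted p of 1.96e-05). The call was kept in 33 of the 34 alternatives that tested Mepe, the exception being a floor of 32, where the value was 0.53. The filter on low values removed Mepe, Lrrn4 and Cdca2, so they have no call there. For Lrrn4 the difference changed by -0.35 (limma adjusted p of 0.0024) and for Cdca2 by -0.42 (limma adjusted p of 0.00357), and both rest on signals of the 4 septum ADX arrays just above the floor. Lrrn4 lost the call under trimmed mean scaling, floors of 8 and 32 and a block of treatment, time and replicate number. Cdca2 lost it under a floor of 32 and that block.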

How the results depend on the processing

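All 30 named genes kept direction and call in 40 of 40 alternatives, and 86 of the 131 genes tested this way did. The 30 were chosen from these same arrays for large gaps without overlap. That choice made a change of call unlikely, so their 40 of 40 is no separate support. Without normalization 20238 probe sets passed, 2.80% of them higher in the hypothalamus against 54.2% with it, and 2897 differed at least 2-fold (4.04% against 39.2% higher in the hypothalamus). The median of all probe sets then shifted by -0.45, and Npy, Pdyn and Pgr turned to -0.67, -0.61 and -0.21. The deposited scales of the regions differ, so directions of small differences rest on the normalization. Within single treatments, with fewer arrays, 4965 (Sham), 4052 (ADX) and 4121 (pADX) passed, and 5980 within AM. Leaving out each array gave 9664 to 10022 calls, and 1042 to 1112 at 2-fold when the fit without the 2 arrays that stand apart, a choice made after seeing the data, is included. With blocks of treatment, time and replicate number, which pair 1 hypothalamus with 1 septum array, 9806 passed and 1057 at 2-fold. Same-numbered arrays had correlated deviations of 0.00174 to 0.269, all positive. Replicates 1 and 2 of a treatment and time share the same value, since each region has only 2 arrays there. These values do not show whether numbers pair the arrays.

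For region by treatment, 3 calls became 6 with trimmed mean scaling, 135 without normalization, 1 with a floor of 32, 0 with a filter on low values and 6 without the 2 arrays that stand apart. Leaving out 1 array gave 3 to 17. It gave at least 5 without septum ADX AM 1, pADX AM 1, ADX PM 1, Sham AM 2, pADX AM 2, Sham PM 2, ADX PM 2 or pADX PM 2, and without hypothalamus pADX AM 1, Sham PM 1, ADX PM 1, Sham AM 2, pADX AM 2, Sham PM 2 or ADX PM 2. For region by time of day it gave 0 to 1, the 1 without septum ADX PM 1. The cause of these changes was not tested. Signals at the floor limit what can be said of weakly expressed genes.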

Other observations

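Further genes with large gaps, chosen after their values were seen, fell outside the lists. Egr1, Egr4 and Nr4a3, transcription factors that neurons switch on with activity, were higher in the septum. Egr1 ran from 6.95 over 7.30 to 7.55 in the hypothalamus and from 9.38 over 9.55 to 9.91 in the septum (-2.25, SE 0.07). Nr4a3 differed by -2.06 (SE 0.12), and Egr4, with 10 hypothalamus arrays at the floor, by -2.22 (SE 0.10). The choice was made among genes without overlap between the regions, so these 3 did not overlap. Itpka and Ptk2b, kinases of forebrain synapses, differed by -2.61 (SE 0.10) and -2.23 (SE 0.13), and Ano3, a membrane protein of the anoctamin family, by -2.62 (SE 0.10).

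On the side of the hypothalamus, Nr2f2, a nuclear receptor of the developing forebrain, ran from 8.67 over 9.01 to 9.24 against 5.67 over 5.87 to 6.38 (3.03, SE 0.09). Ngb, the oxygen-binding neuroglobin of neurons, ran from 7.5 over 7.64 to 7.81 against 4.56 over 5.12 to 6.22 (2.43, SE 0.14). Gpx3, a secreted glutathione peroxidase, was higher by 2.70 (SE 0.12), and Kcnj16, a potassium channel, by 2.23 (SE 0.11). Prph, an intermediate filament of peripheral and some central neurons, was higher by 2.55 (SE 0.09), and Dlk1, an imprinted gene, by 1.66 (SE 0.16). These 6 were also chosen among genes without overlap between the regions.

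Some genes varied widely among arrays of both regions. Ythdf2, an RNA-binding protein, ran from 7.65 to 10.62 in the hypothalamus and from 7.67 to 10.78 in the septum, and Setd1b, a histone methyltransferase, from 4.0 to 7.30 and from 4.0 to 7.97. The median residual SD over the genes compared was 0.15 in the hypothalamus and 0.16 in the septum, against 1.12 and 0.93 for Ythdf2.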
